A study of Mus musculus with 35 samples.

Results

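GABA-A receptor subunits were followed through the hippocampus and the amygdala of inbred mice. The group consists of 7 genes, Gabra2, Gabra3, Gabra4, Gabra5, Gabrb1, Gabrd and Gabrg1, and every array probe that the platform annotation assigns to 1 of them was taken. This gave 6 probes of 6 genes among the 24620 probes of the array, 1 probe per gene, and none for Gabrb1, which encodes the beta1 subunit. RNA came from tissue punches of frozen brains of test-naive male A/J and C57BL/6J mice, 3 to 4 months old, with no treatment and no engineered allele in any group. The amygdala was punched on both sides, and the hippocampal tissue came from the left side. For A/J, 9 arrays (Illumina MouseRef-8) held hippocampus and 8 held amygdala, and for C57BL/6J there were 9 of each region, so that 18 hippocampus and 17 amygdala arrays were compared. A punch holds many cell types, so a lower level can mean fewer cells of a type or less RNA per cell, and these cannot be told apart.

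GABA-A receptors are chloride channels opened by the inhibitory transmitter GABA, and each is assembled from a ring of alpha, beta and gamma or delta subunits. Receptors with a gamma subunit mostly serve fast inhibition at synapses, whereas receptors with the delta subunit lie outside synapses and carry a tonic current. The alpha and gamma subunits together form the binding site of benzodiazepines, drugs that reduce anxiety, and the make-up of the receptor differs among brain regions and cell types.

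The clearest result of the family was a regional difference of Gabrg1, which encodes the gamma1 subunit, whereas the regions overlapped for Gabra3 and Gabrd, which did not pass the threshold. A probe counted as detected on an array at a detection p-value below 0.01, which compares its signal with that of the negative control beads. By this criterion Gabrg1 was detected on 16 of 35 arrays, Gabra3 on 29 and Gabrd on 33. Gabra2, Gabra4 and Gabra5 were detected on none. Probes detected on at least 8 arrays were tested, so that 3 of the 6 member probes were tested among 10408 probes in all. Levels are given on the log2 scale after background correction and quantile normalization, and levels of different probes are not comparable with each other.

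**Figure D1:**
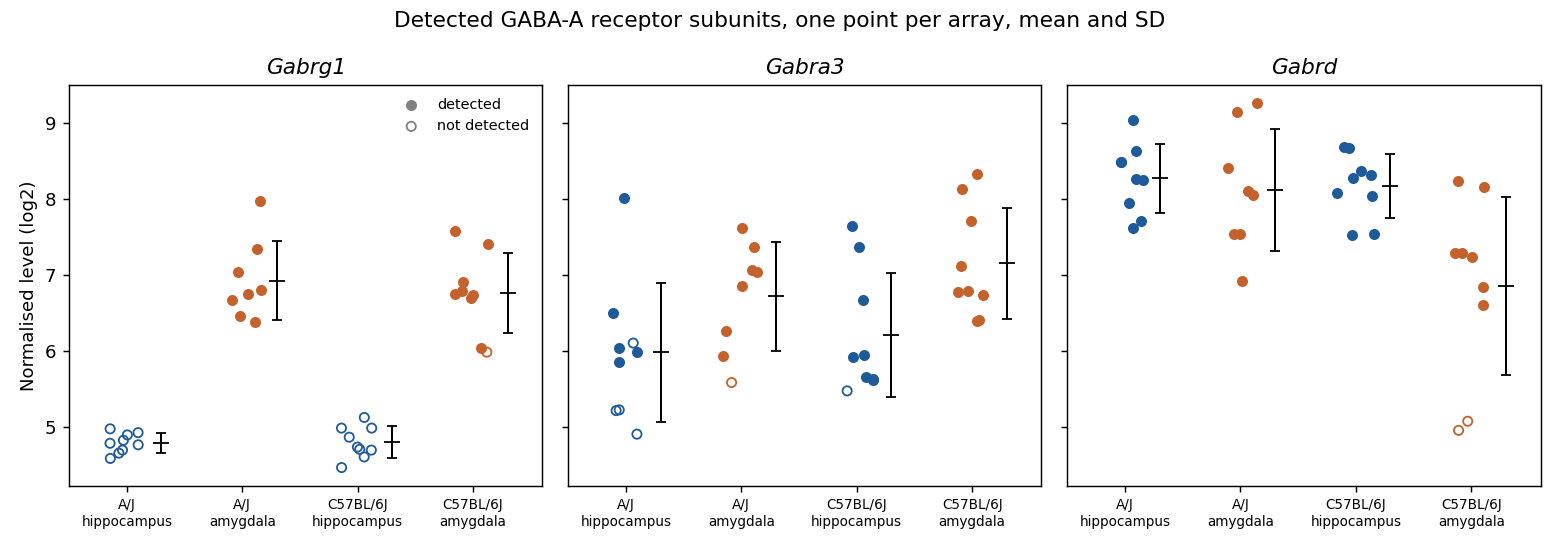
Normalised log2 level (vertical axis) of Gabrg1, Gabra3 and Gabrd on each array of the 4 groups, filled where the probe was detected and open where it was not, with the mean and SD of each group at its right. Gabrg1 lies at 5.12 or below on every hippocampus array and at 5.98 or above on every amygdala array, while the groups overlap for Gabra3 and Gabrd, and heights cannot be compared between panels.

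The gamma1 subunit takes the place of the common gamma2 subunit in a minority of receptors, and receptors that contain it respond weakly to classical benzodiazepines. Gabrg1 lies on chromosome 5 beside Gabra2, Gabra4 and Gabrb1. The RefSeq window around its start site (GRCm38.p6, chr5:70842568-70842867, minus strand, 250 bases before to 50 after the start) is shown because Gabrg1 is the member with the regional difference, and the capitals mark TAATTA, a core that many homeodomain proteins bind.

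Gabrg1: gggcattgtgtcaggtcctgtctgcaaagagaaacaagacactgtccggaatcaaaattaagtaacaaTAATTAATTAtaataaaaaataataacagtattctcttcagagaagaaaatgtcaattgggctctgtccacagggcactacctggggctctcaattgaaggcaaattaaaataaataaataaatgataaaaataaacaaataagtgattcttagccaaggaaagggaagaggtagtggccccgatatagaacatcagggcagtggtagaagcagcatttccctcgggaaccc

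The window holds 2 overlapping copies of TAATTA, which reads the same on both strands, and 5.3% of the 32817 windows of this length in the same table hold at least 1 copy. Its G and C content was 38.3%, against a median of 52.7% over all windows, and it has 3 CpG dinucleotides, against a median of 7. Searches on both strands for TATAAA (in 13.6% of all windows), TGACGTCA (1.79%) and CACGTG (7.15%) gave no match in it. Windows were also given for Gabra2, Gabra3, Gabra4, Gabra5 and Gabrb1, 8 windows of 6 genes with Gabrg1, and TAATTA was in none of the others. Both Gabra3 windows, which overlap, hold 1 copy of TATAAA on the opposite strand. The matches describe these letters only.

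In A/J hippocampus the Gabrg1 level had a minimum of 4.58, a median of 4.78 and a maximum of 4.97, with detection on 0 of 9 arrays. In A/J amygdala it had a minimum of 6.38, a median of 6.77 and a maximum of 7.97, with detection on 8 of 8 arrays. Every A/J amygdala array was therefore above every A/J hippocampus array. In C57BL/6J hippocampus the lowest, median and highest levels were 4.46, 4.73 and 5.12, and 0 of 9 arrays detected it. In C57BL/6J amygdala they were 5.98, 6.74 and 7.57, and 8 of 9 arrays detected it. The amygdala array at 5.98 missed detection with a signal of 17.9 and a detection p-value of 0.0224. The ranges of all hippocampus and all amygdala arrays did not overlap, a property that 1.31% of the tested probes had.

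Averaged over strains, Gabrg1 was lower in hippocampus, with a mean level of 4.79 ± 0.17 in hippocampus (SD, n = 18) and 6.84 ± 0.51 in amygdala (SD, n = 17). The difference, hippocampus minus amygdala, was -2.05 on the log2 scale with a standard error of 0.13 (95% interval -2.32 to -1.79, adjusted p = 5.3e-15, limma). Gabrg1 was the only tested member past the threshold of 0.01 for region, 1 of 3, while 12.2% of all tested probes passed it and 5.76% passed it with a lower level in hippocampus. It ranked 39 by p-value among the 10408 tested probes. Because the probe was undetected on every hippocampus array, the fitted size, its standard error, the p-value, the rank and the gap between the ranges rest on background values there. The probe met the filter of at least 8 arrays through amygdala arrays alone, so its selection for testing was not independent of region. Against the lowest level detected on those arrays (mean 5.67), its amygdala level was at least 2.24-fold higher than in hippocampus, and this bound was 2.45-fold in A/J and 2.07-fold in C57BL/6J.

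The regional difference of Gabrg1 had a like size in each strain. It was -2.14 in A/J (SE 0.19, adjusted p = 6.0e-11), where 8.63% of tested probes were past the threshold, and -1.97 in C57BL/6J (SE 0.18, adjusted p = 2.8e-10), where 6.10% were. The interaction, the A/J difference minus the C57BL/6J difference, was -0.17 (95% interval -0.70 to 0.36, adjusted p = 0.842). By limma 0 of the 3 tested members passed the threshold for the interaction, which 0.0673% of tested probes did, and 1, Gabrd, had an unadjusted p below 0.05. The strain difference of Gabrg1, A/J minus C57BL/6J, was 0.08 over both regions (95% interval -0.19 to 0.34, adjusted p = 0.77) and 0.16 in amygdala (95% interval -0.22 to 0.54, adjusted p = 0.618). The order of the groups was thus A/J amygdala, C57BL/6J amygdala and the hippocampus groups, with no difference past the threshold between strains within a region.

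The Gabrg1 result was as large within each batch. The chips were sorted by the first digits of their IDs into 2 lots with 21 and 14 arrays, and the region difference was -2.11 in lot 1 (adjusted p = 8.3e-08) and -2.15 in lot 2 (adjusted p = 8.8e-07). Gabrg1 was lower in hippocampus on all 3 chips that carried both regions of A/J (-1.96 to -1.78) and on all 6 that carried both of C57BL/6J (-2.42 to -1.66). Without the 8 arrays that detected fewer than 7000 probes the difference was -2.07. The scale of the values set its size, however, since it was -0.12 in the authors' processed log2 values (adjusted p = 5.3e-08), where dim probes are compressed, and -0.88 when an offset replaced the background correction (adjusted p = 6.2e-12).

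The genes whose levels were most like that of Gabrg1 over the 35 arrays were Slc10a4, a member of the bile acid transporter family (Pearson r = 0.953), Chodl, which encodes chondrolectin (r = 0.953), and Tacr1, the substance P receptor (r = 0.938). All 3 were detected on 0 hippocampus arrays and on 16 or 17 amygdala arrays, as Gabrg1 was on 0 and 16. The correlations, also those with the group means removed, therefore include background values on every hippocampus array. After the 4 group means were removed, the correlations were 0.550 for Slc10a4, 0.606 for Chodl and 0.107 for Tacr1, all below the correlations over the groups. These are descriptions over arrays that share chips and depth.

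Gabra3 encodes the alpha3 subunit, which carries a benzodiazepine site and is prominent in monoamine neurons and the thalamic reticular nucleus. In A/J hippocampus its level had a minimum of 4.90, a median of 5.98 and a maximum of 8.01 (5 of 9 arrays detected), and in A/J amygdala 5.58, 6.94 and 7.62 (7 of 8 detected). In C57BL/6J hippocampus the lowest, median and highest levels were 5.47, 5.91 and 7.64 (8 of 9 detected), and in C57BL/6J amygdala 6.39, 6.79 and 8.33 (9 of 9 detected). The groups overlapped in each strain, and an A/J hippocampus array at 8.01 was above every A/J amygdala array. Its deposited signal of 126.5 was, however, inside the A/J amygdala range of 32.6 to 207.

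The region difference of Gabra3 was -0.84 (SE 0.26, 95% interval -1.36 to -0.31) and missed the threshold with an adjusted p of 0.0197. Means were 6.09 ± 0.85 in hippocampus (SD, n = 18) and 6.94 ± 0.74 in amygdala (SD, n = 17). The difference was -0.73 in A/J (adjusted p = 0.236) and -0.94 in C57BL/6J (adjusted p = 0.112). It was -0.81 within chip lot 1 (adjusted p = 0.186) and -1.11 within lot 2 (adjusted p = 0.103). Within a strain, 3 chips carried both regions of A/J and 6 both of C57BL/6J, and the difference was negative on 2 and 5 of these. The call depended on the model, as it passed with arrays scaled to a common median (-0.91, adjusted p = 0.0026), with the number of detected probes as a covariate (-0.90, adjusted p = 0.00191) and with array weights (-1.18, adjusted p = 3.9e-05). It also passed when A/J hippocampus replicate 6, the array at 8.01, was left out, or A/J amygdala replicate 4, or C57BL/6J hippocampus replicate 1, with an adjusted p down to 0.00252. It did not pass without the arrays that detected fewer than 7000 probes (-0.73, adjusted p = 0.0521) or with chip as a block (-0.78, adjusted p = 0.0544). Nor did it pass in the authors' processed log2 values (-0.05, adjusted p = 0.187) or under the remaining settings. The strain difference was -0.33 (95% interval -0.86 to 0.19, adjusted p = 0.493) and the interaction 0.21 (95% interval -0.85 to 1.26, adjusted p = 0.909).

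The nearest patterns to Gabra3 over the 35 arrays were those of Ccdc160 (r = 0.813), Ehd4, an endocytic membrane protein (r = 0.800), and Gspt2, a translation termination factor (r = 0.799). These correlations stayed at 0.738, 0.733 and 0.725 after the group means were removed. Gabra3 levels also differed with array depth, which these correlations do not remove.

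Gabrd encodes the delta subunit, which in the forebrain is best known from dentate granule cells, where it joins alpha4 in extrasynaptic receptors. Its level in A/J hippocampus had a minimum of 7.61, a median of 8.26 and a maximum of 9.04, and in A/J amygdala 6.92, 8.07 and 9.26, with detection on every array of both. The values in C57BL/6J hippocampus were 7.52, 8.27 and 8.68 with detection on 9 of 9 arrays. In C57BL/6J amygdala they were 4.95, 7.23 and 8.24, and 7 of 9 arrays detected it. The C57BL/6J amygdala group reached lowest, yet it overlapped each of the others.

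No comparison of Gabrd passed the threshold, and the differences that came nearest all involved C57BL/6J amygdala. In A/J the level was 8.27 ± 0.46 in hippocampus (SD, n = 9) and 8.12 ± 0.81 in amygdala (SD, n = 8), a difference of 0.15 (95% interval -0.58 to 0.88, adjusted p = 0.845). In C57BL/6J the hippocampus level was 8.16 ± 0.42 (SD, n = 9) and the amygdala level 6.85 ± 1.17 (SD, n = 9), a difference of 1.31 (SE 0.35, 95% interval 0.60 to 2.02, adjusted p = 0.0101). The interaction was -1.16 (95% interval -2.18 to -0.14, adjusted p = 0.579), so the regional differences of the strains were not shown to differ. Within amygdala, A/J was above C57BL/6J by 1.27 (SE 0.36, adjusted p = 0.0227), where 4.02% of tested probes passed the threshold, and within hippocampus by 0.11 (95% interval -0.60 to 0.81, adjusted p = 0.98), where 3.38% did. Over both strains the region difference was 0.73 (adjusted p = 0.0367), and over both regions the strain difference was 0.69 (adjusted p = 0.0878). For strain as a whole 0 of the 3 tested members passed by limma, against 5.89% of all tested probes, and Gabrd alone had an unadjusted p below 0.05.

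**Figure D2:**
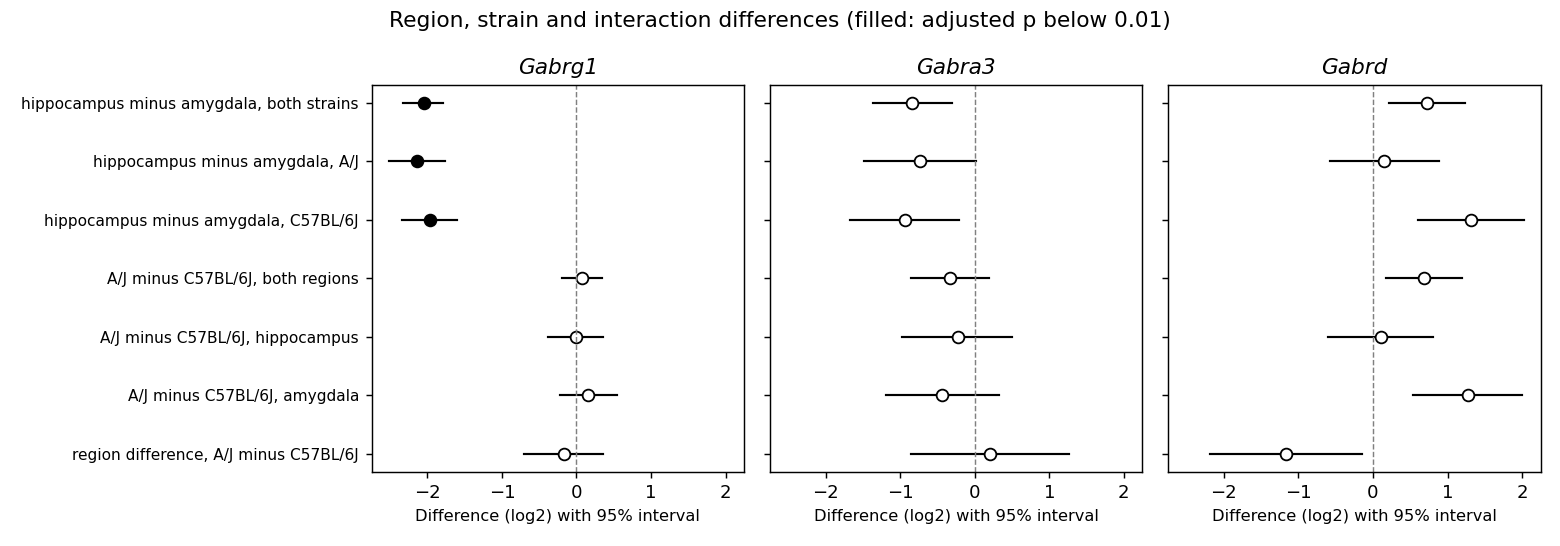
Log2 differences (horizontal axis, with 95% intervals) of Gabrg1, Gabra3 and Gabrd for 7 comparisons, with a filled point where the adjusted p was below 0.01. The region differences of Gabrg1, from -2.14 to -1.97, are the filled ones, and those of Gabra3 and Gabrd are open.

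The Gabrd region difference of C57BL/6J moved in opposite directions in 2 fits that took array depth into account. Arrays detected 6099 to 11039 probes, and 8 arrays detected fewer than 7000, of which 2 held hippocampus and 1 amygdala of A/J, and 2 hippocampus and 3 amygdala of C57BL/6J. The 3 shallow C57BL/6J amygdala arrays had Gabrd levels of 4.95, 5.07 and 6.84, while the other 6 lay between 6.60 and 8.24. The arrays at 4.95 and 5.07, the only 2 of 35 without detection of Gabrd, detected 6243 and 6653 probes. In A/J amygdala the shallow array was at 8.05, inside the range of 6.92 to 9.26 of the others. Without the 8 shallow arrays the C57BL/6J region difference was 0.88 (adjusted p = 0.0844) and the strain difference in amygdala 0.66 (adjusted p = 0.299). With the number of detected probes as a covariate the C57BL/6J region difference was 1.36 (adjusted p = 5.9e-04) and the strain difference in amygdala 1.07 (adjusted p = 0.0156). The part of depth in these differences was not tested beyond these fits.

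The quantile-normalized Gabra3 levels moved the other way from the Gabrd levels on the shallow C57BL/6J amygdala arrays. The 3 shallow C57BL/6J amygdala arrays had Gabra3 levels of 7.71, 8.13 and 8.33, all above the other 6, which lay between 6.39 and 7.11. Gabrg1 was at 5.98, 6.91 and 7.40 on the shallow C57BL/6J amygdala arrays, within or just below the range of 6.03 to 7.57 of the others. In C57BL/6J hippocampus the 2 shallow arrays had Gabrd levels of 7.52 and 7.54, below the 8.04 to 8.68 of the other 7, and Gabra3 levels of 6.67 and 7.64, against 5.47 to 7.37.

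**Figure D3:**
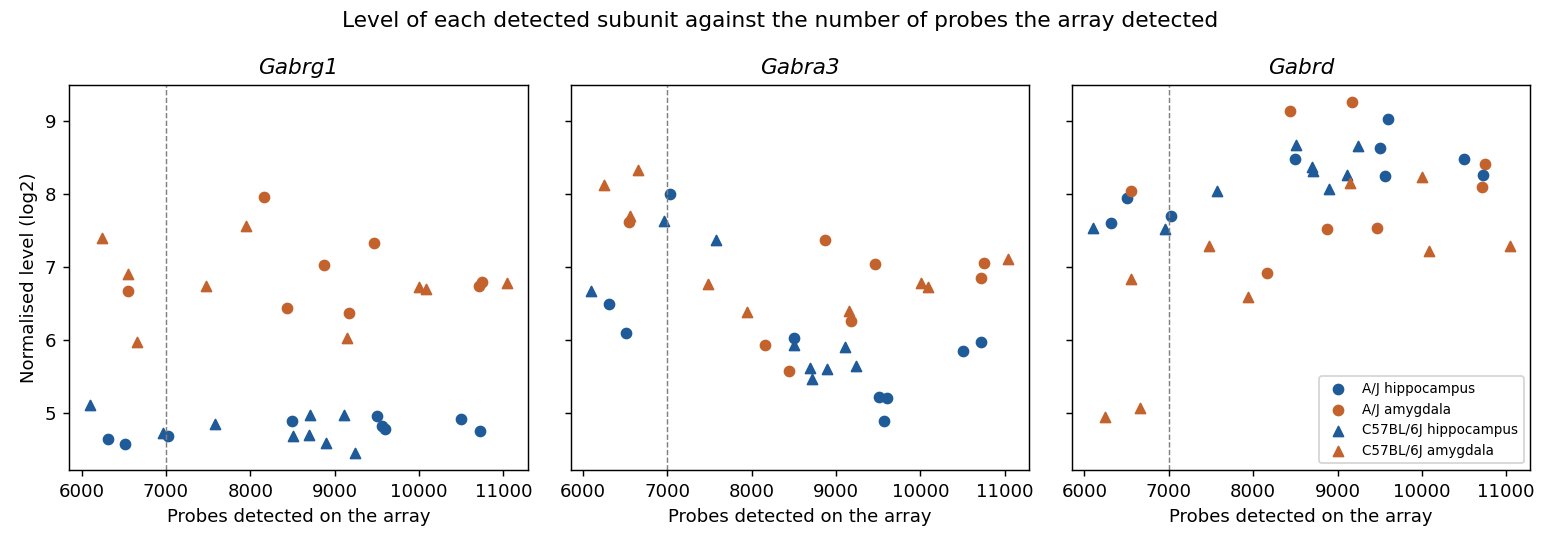
Normalised log2 level (vertical axis) of Gabrg1, Gabra3 and Gabrd against the number of probes detected on the array (horizontal axis), 1 point per array, with circles for A/J, triangles for C57BL/6J and a dashed line at 7000 probes. The regions stay apart at every depth for Gabrg1, while the 2 lowest Gabrd points, at 4.95 and 5.07, lie left of the line.

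The Gabrd difference in C57BL/6J was close to the threshold, and small changes of the model moved it across. It passed with a filter of at least 17 arrays (1.31, adjusted p = 0.00964), with chip lot as a block (1.34, adjusted p = 0.00898), with chip as a random block (1.37, adjusted p = 0.0035), with an intensity trend in the variance (adjusted p = 0.00936) and with array weights (adjusted p = 0.00642). It did not pass with chip as a block (1.43, adjusted p = 0.0113), with arrays scaled to a common median (1.16, adjusted p = 0.306) or in the authors' processed log2 values (0.16, adjusted p = 0.107). Nor did it pass when an offset replaced the background correction (0.77, adjusted p = 0.0153). The same held with a filter of at least 1 array (adjusted p = 0.0126) and with all probes (adjusted p = 0.0268). The difference was 1.14 within lot 1 (adjusted p = 0.165) and 2.06 within lot 2 (adjusted p = 0.0417). Leaving out any 1 of 7 arrays took it past the threshold, namely A/J amygdala replicates 4, 5 and 7, C57BL/6J hippocampus replicates 1 and 8, and C57BL/6J amygdala replicates 5 and 7. The adjusted p over all 35 such fits was 0.00273 to 0.0296. The A/J minus C57BL/6J difference in amygdala was 0.69 within lot 1 (adjusted p = 0.679) and 2.53 within lot 2 (adjusted p = 0.00932), where C57BL/6J amygdala had 2 arrays. On the 6 chips with both regions of C57BL/6J Gabrd was higher in hippocampus on 6 of 6, by 0.43 to 3.32 on the log2 scale, and on the 3 with both regions of A/J it was higher on 1 and lower on 2.

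**Figure D4:**
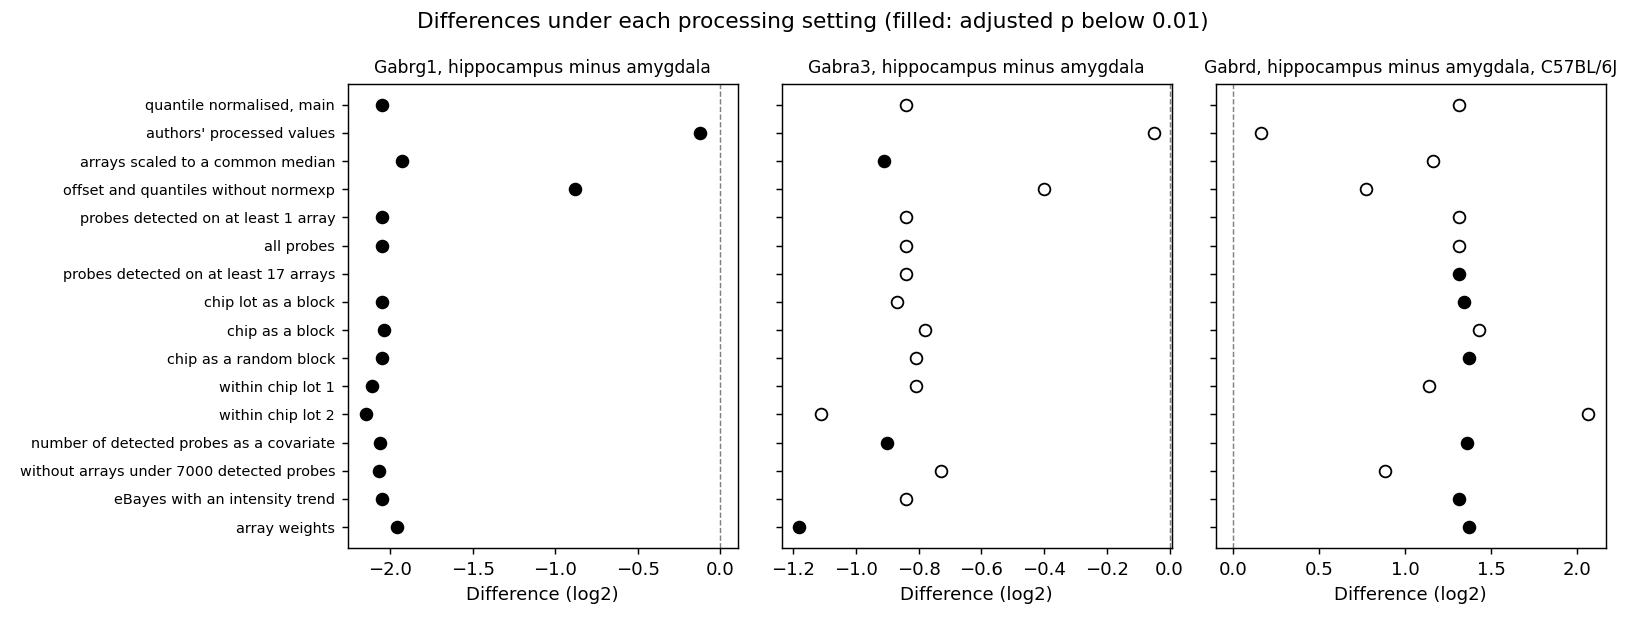
Log2 difference, hippocampus minus amygdala (horizontal axis), of Gabrg1 and Gabra3 over both strains and of Gabrd in C57BL/6J, for the main processing and each alternative down the page, filled where the adjusted p was below 0.01. Gabrg1 is filled under every setting that tested it, from -2.15 to -0.12, while Gabra3 and Gabrd change between open and filled.

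The genes closest to Gabrd over the 35 arrays were Mgat4b, a glycosyltransferase (r = 0.820), Dapk1, the death-associated protein kinase (r = 0.815), and Letmd1 (r = 0.807). These were 0.778, 0.672 and 0.781 after the group means were removed. Gabrd levels also differed with array depth in C57BL/6J, which these correlations do not remove. The tested members were also set against each other within each group, 12 relations in all with exact permutation tests. Gabra3 and Gabrd went in opposite directions in all 4 groups, with r = -0.708 in A/J hippocampus (exact p = 0.0295), -0.315 in A/J amygdala (exact p = 0.44), -0.722 in C57BL/6J hippocampus (exact p = 0.0319) and -0.818 in C57BL/6J amygdala (exact p = 0.00928), and none of these passed after adjustment over the 12 (adjusted p = 0.0557 or more). In C57BL/6J amygdala the relation rested on the array extremes, as r was -0.299 once the 2 arrays most distant from its median Gabra3 level were dropped. Spearman's rho there was -0.452 (exact p = 0.224). In the deposited signals the shallow arrays of that group were lowest in Gabrd but, as given above, not highest in Gabra3. Gabrg1 and Gabrd had r = -0.907 in A/J amygdala (exact p = 0.000794, adjusted p = 0.00952) and -0.933 without the 2 farthest arrays, with rho = -0.881 (exact p = 0.00724, adjusted p = 0.0869). The same relation was -0.21 in C57BL/6J amygdala (exact p = 0.592) and -0.842 there without the 2 arrays farthest from its median Gabrg1 level. Those arrays, at Gabrg1 levels of 7.57 and 5.98, included 1 of the 2 without detection of Gabrd. The other of these, at a Gabrd level of 4.95, was kept, so the -0.842 depends on which arrays are dropped. In A/J hippocampus, where Gabrg1 was not detected, the relation was 0.681 (exact p = 0.044). Each chip lot holds 4 A/J amygdala arrays, which is too few for a value within lots there. Within lot 1, r between Gabra3 and Gabrd was -0.643 in C57BL/6J hippocampus (n = 6, exact p = 0.179) and -0.777 in C57BL/6J amygdala (n = 7, exact p = 0.081).

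Gabra2, Gabra4 and Gabra5 gave no measurable level. Gabra2 encodes the alpha2 subunit, linked in mice to the anxiety-reducing action of benzodiazepines, Gabra4 encodes alpha4, the usual partner of delta, and Gabra5 encodes alpha5, which is abundant in hippocampal CA1 pyramidal cells. After subtraction of the control beads the Gabra2 signal was -6.70 to 14.3 over the 35 arrays, and its smallest detection p-value was 0.0828. The Gabra4 signal was -15.8 to 10.2 with a smallest detection p-value of 0.175, and the Gabra5 signal was -14.8 to -1.50 with a smallest of 0.490. Median Gabra2 signals were 3.80 in A/J hippocampus, 0.850 in A/J amygdala, 3.80 in C57BL/6J hippocampus and 3.70 in C57BL/6J amygdala. No fold change is given for these 3 genes because every group lay at background, and at this sensitivity their transcripts were not detectable by these probes, which does not show that they were absent.

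**Figure D5:**
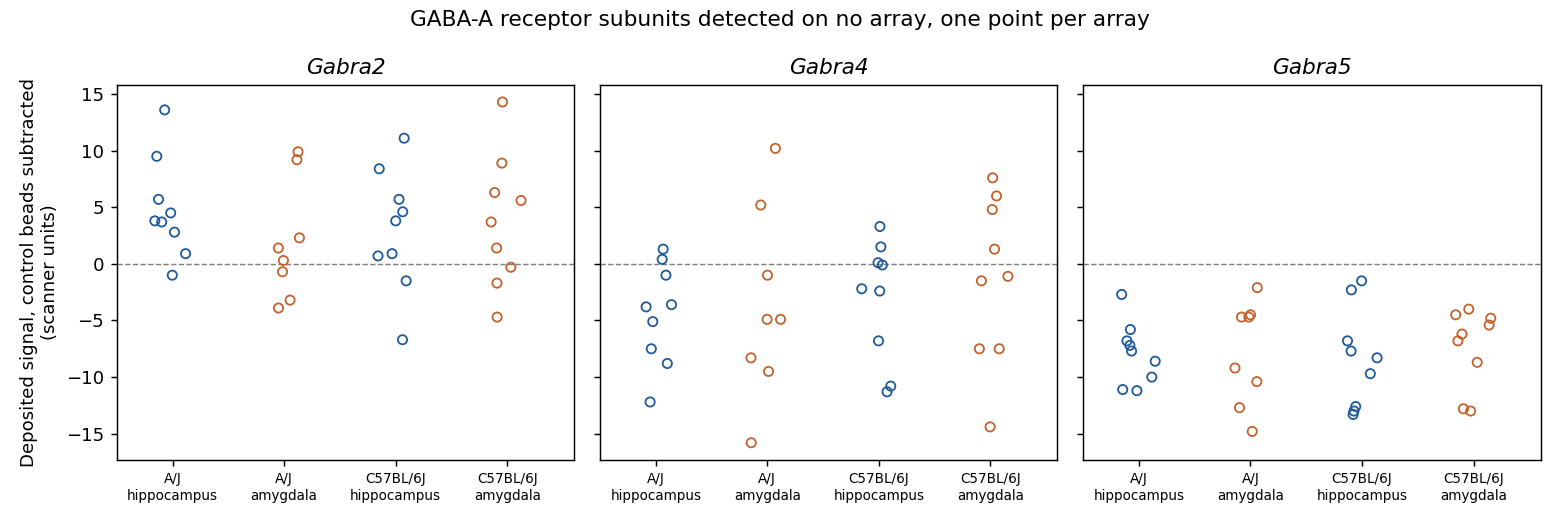
Deposited signal in scanner units after subtraction of the negative control beads (vertical axis) of Gabra2, Gabra4 and Gabra5, 1 open point per array in the 4 groups, with a dashed line at 0. All values lie between -15.8 and 14.3, and every Gabra5 value is below 0.

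The rest of the receptor family was seen more sparsely. Of 12 further subunit genes, 8 had a probe, 10 probes in all, and 9 of these probes were detected on no array. The exception was a probe of Gabrb2, which encodes the widespread beta2 subunit, detected on 12 of 35 arrays, 3 of hippocampus and 9 of amygdala. Its level was 5.17 in hippocampus and 5.25 in amygdala, a difference of -0.08 (95% interval -0.35 to 0.20, adjusted p = 0.816), and its strain difference was 0.15 (adjusted p = 0.557). The other Gabrb2 probe was among those detected nowhere.

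Other genes of GABA signalling were counted from lists, with 1 tested probe per gene. Of 7 tested genes of GABA synthesis, transport and breakdown, 2 were higher and 4 lower in hippocampus, with a median difference of -0.46 against 0.00 over all tested probes, of which 6.42% were called higher and 5.76% lower. The vesicular GABA transporter Slc32a1 was lower in hippocampus (-1.83 on the log2 scale, adjusted p = 7.5e-14), as were the GABA transaminase Abat (-0.96, adjusted p = 0.00307) and the astrocytic GABA transporter Slc6a11 (-0.46, adjusted p = 0.00477). The GABA-synthesising enzyme Gad1 averaged 11.10 in hippocampus and 12.09 in amygdala (adjusted p = 3.2e-07). The transporters Slc6a13 and Slc6a12 were higher in hippocampus by 1.19 and 0.92 on the log2 scale (adjusted p = 3.4e-04 and 1.5e-04), the second with detection on only 8 hippocampus and 1 amygdala arrays. Gabrg1 had the direction of Slc32a1 and Gad1.

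Of 19 tested genes for scaffolding and trafficking of GABA-A receptors, 0 were higher and 3 lower in hippocampus, with a median of -0.03. These were Hap1, which aids the return of receptors to the surface (-1.50, adjusted p = 2.2e-12), Plcl2, a phospholipase C-like receptor partner (-0.59, adjusted p = 1.1e-04), and Trak2, a trafficking adaptor (-0.46, adjusted p = 0.00279). The scaffold Gphn, which encodes gephyrin and anchors receptors at synapses, had a difference of -0.21 (adjusted p = 0.379). Of 3 tested GABA-B receptor genes and 3 neurosteroid synthesis genes, 0 were called for region by limma and 0 had an unadjusted p below 0.05, while 1 of 2 genes of the chloride gradient, Wnk1, was lower in hippocampus (-0.52, adjusted p = 0.00352). The glycine receptor subunit Glra2, from the same channel superfamily, was the only tested 1 of 5 such genes and was lower in hippocampus, with a mean of 6.85 in hippocampus and 8.85 in amygdala (adjusted p = 1.5e-11) and detection on 16 of 18 hippocampus and 17 of 17 amygdala arrays. For strain, where 2.05% of tested probes were higher and 3.84% lower in A/J, and for the interaction, 0 of the 36 tested genes of these lists, Gabrb2 included, passed the threshold by limma, and 6 for strain and 2 for the interaction had an unadjusted p below 0.05.

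Markers of cell types moved with region as well, where 6.42% of all tested probes were called higher and 5.76% lower in hippocampus. All 6 tested markers of medium spiny neurons, the GABA neurons of the striatum, were lower in hippocampus, with a median difference of -2.99, and their mean log2 level was 5.32 to 5.92 on A/J hippocampus arrays, 8.13 to 9.87 on A/J amygdala arrays, 5.47 to 6.00 on C57BL/6J hippocampus arrays and 6.44 to 9.11 on C57BL/6J amygdala arrays. Of 7 tested GABA neuron markers 4 were lower in hippocampus, with mean levels of 8.83 to 9.22, 9.30 to 9.83, 8.48 to 9.05 and 9.36 to 9.83 in the same groups, and Gad2 and Vip were undetected throughout. Of 7 oligodendrocyte markers 6 were lower in hippocampus, and of 5 microglia and 4 endothelial markers, as of 6 astrocyte markers, 0 were called by limma, and 1, a microglia marker, had an unadjusted p below 0.05. Of 6 markers of cortical excitatory neurons 5 were higher in hippocampus, and of 3 choroid plexus markers 1 was lower. Of 5 tested hippocampal subfield markers 3 were higher in hippocampus, namely C1ql2 (4.11) and Prox1 (2.04) of dentate granule cells and Zbtb20 (1.30). Wfs1 was lower in hippocampus (-2.37), and Spink8 was not called by limma (0.87, adjusted p = 0.123). Of 6 thalamic or hypothalamic markers 3 were higher in hippocampus, namely Tcf7l2 (1.53), Prkcd (1.83) and Slc17a6 (1.05). The other 3, Avp (-1.97), Oxt (-1.13) and Trh (-1.25), were lower there. The part of these cell types in the Gabrg1, Gabra3 and Gabrd differences was not tested. For strain 2.05% of all tested probes were called higher and 3.84% lower in A/J. These marker lists held 2 strain calls. Wfs1, 1 of 5 tested hippocampal subfield markers, was higher in A/J, and C1qb, 1 of 5 tested microglia markers, was lower.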

How the data were processed

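Total RNA of 35 tissue samples was hybridized to Illumina MouseRef-8 V1.1 arrays, and groups were taken from the sample labels. The deposited signals, in scanner intensity units written with decimal commas, were extracted by the authors with BeadStudio, with the negative control bead mean subtracted. Their deposited detection score was turned into a detection p-value by subtracting it from 1. The authors' deposited log2 values came from variance stabilization and robust spline normalization in Lumi, and served as an alternative.

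Signals were processed with neqc of limma 3.58.1 in R 4.3.3 (normexp from detection p-values, offset 16, quantile normalization, log2). Probes detected (p below 0.01) on at least 8 arrays were fitted with limma on the 4 group means over 35 arrays. Region is hippocampus minus amygdala, strain A/J minus C57BL/6J, and the interaction their difference. P-values were adjusted by Benjamini-Hochberg over the 10408 probes, and the threshold was 0.01. Where no array of a region detected a probe, the bound sets the other region's mean against the lowest detected level, or the probe's own if higher, averaged over those arrays. On simulated log2 values of 10408 probes the region fit recovered 49 of 50 planted differences of 2, 45 of 50 of 1, 44 of 50 of -1 and 19 of 50 of 0.5. The simulated noise was normal and equal across groups, without a background floor or chip and depth effects. It therefore does not cover probes at background in a region, such as Gabrg1. Depth was 6099 to 11039 detected probes per array, and the number of arrays limits the precision.

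All members are described, with the 3 most correlated genes of each tested member; other genes are named from lists. The members and lists were chosen with earlier results of these data known, and the promoter motifs after the levels were seen. By the study's methods each array held the RNA of an individual mouse. The labels do not tie the regions to animals, so the tests are unpaired. A mouse may have given both regions, so the arrays may not be independent, and the tests do not account for this. Alternatives were other normalizations, filters, batch and depth terms, weights, and leaving out each array, the last chosen after seeing the data. Promoter windows are RefSeq's; gene names are those of the platform annotation.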

Additional observations from a re-analysis of the deposited data

Results flagged for a closer look

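Of 24 member probes by group combinations examined for an array far from the others, 1 stood out, and about 1 in 20 would be expected to by chance. The highest A/J hippocampus array had a Gabra2 level of 5.16, with the next at 4.82, a gap that took 0.558 of the range of that group. Gabra2 was not detected on that array or any other.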

How the results depend on the processing

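The region difference of Gabrg1 kept its direction and stayed past the threshold under the 14 alternatives that tested it, at -2.15 to -0.12 (adjusted p 9.7e-17 to 8.8e-07), and when any array was left out (-2.10 to -1.98). A filter of at least 17 arrays removed the probe, which left 0 members past the threshold for region and 0 for region in A/J, while Gabrd passed for region in C57BL/6J. The number of members past it for region was 2 with arrays scaled to a common median (Gabra3 joined; the all-probe strain median was then 0.23 against 0.05) and 3 with the number of detected probes as a covariate or with array weights (Gabra3 and Gabrd joined). Array weights gave 1 for strain (Gabrd), 2 for region in A/J (Gabra3 joined) and 1 for strain in amygdala (Gabrd), which was also 1 within lot 2; over all probes these weights called 1754 for strain (613 without weights), 3128 for region in A/J (898) and 2409 for strain in amygdala (418). The count for region in C57BL/6J was 2 (Gabrd joined) with chip lot as a block, chip as a random block, the covariate, the intensity trend or array weights. Leaving out 1 array gave 1 to 2 members for region, 1 to 2 for region in C57BL/6J and 0 to 1 for strain in amygdala. The strain difference in amygdala of Gabrd passed without A/J amygdala replicate 5 or without C57BL/6J amygdala replicate 5 or 7. Differences never past the threshold changed sign for Gabrg1 by strain with chip as a block (-0.09) and within lot 2 (-0.25), for the Gabrg1 interaction with chip as a block (0.07), within lot 2 (0.48) and with array weights (0.07), and for the Gabra3 interaction with common-median scaling (-0.02), within lot 1 (-0.00) and with array weights (-0.08). The causes were not tested. No paired analysis was possible because the labels do not tie samples to animals and their replicate numbers follow only the order of the records. Signals near the control beads limit the 3 undetected members and the size and p-value of the Gabrg1 difference.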
